A study of Mus musculus with 15 samples.

Results

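Transcripts of 10 chemokine genes (Ccl2, Ccl4, Ccl5, Ccl6, Ccl24, Cxcl1, Cxcl9, Cxcl10, Cxcl12 and Cxcl16) were followed in mouse liver across 3 diets. The genes were taken by symbol and each matched 1 Ensembl gene ID, which gave 10 of the 56980 IDs in the table. The animals were wild-type male C57BL/6J mice, and the labels of all libraries carry the tag ALF, which they do not explain. They entered the study at 15 weeks of age and ate 1 diet for 9 months. The control diet held 10% fat (4 libraries), the high-fat diet 60% fat (5 libraries) and the ketogenic diet 89.9% fat (5 libraries). Another control library, replicate 1, was excluded by the submitters as contaminated and entered no comparison. The labels number the libraries of a diet as replicates but do not say that each came from its own mouse, and the p-values below therefore reflect library-to-library spread, which may be technical in part. The 14 libraries held 16329425 to 25349148 counts each. All 10 genes passed the filter on low counts (minimum count 10), and none was at 0 in any library.

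Chemokines are small secreted proteins that guide leukocytes by binding G-protein-coupled receptors on their surface. The CC class (Ccl) has adjacent cysteines near the amino terminus, and the CXC class (Cxcl) has another residue between them. In liver they come from Kupffer cells, which are the resident macrophages, and from recruited monocytes, stellate cells, endothelial cells and hepatocytes, and several are induced through NF-kB and interferon signalling. Ccl2 draws Ccr2-bearing monocytes, and Ccl4 and Ccl5 draw T cells and macrophages. Cxcl9 and Cxcl10 are interferon-inducible ligands of Cxcr3 on T and NK cells, and Cxcl1 draws neutrophils through Cxcr2. Ccl6 is a macrophage chemokine described in rodents, and Ccl24 draws eosinophils through Ccr3. Cxcl12 is made constitutively by stromal cells and acts on Cxcr4. Cxcl16 is anchored in the cell membrane, can be shed by the protease Adam10, and binds Cxcr6.

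Promoter sequence of 5 of the 10 genes (Cxcl1, Cxcl9, Cxcl10, Cxcl12 and Ccl6) was taken from RefSeq on build GRCm38.p6, as the 250 bases before each annotated start. Cxcl10 is shown because its transcript rose on both diets, and Cxcl9 because it too is a Cxcr3 ligand. Cxcl1 is shown for its NF-kB matches and Cxcl12 as the most abundant gene, which did not pass the test. Capitals mark matches to motifs searched on both strands, and each sequence runs 5′ to 3′ toward the start.
Cxcl10: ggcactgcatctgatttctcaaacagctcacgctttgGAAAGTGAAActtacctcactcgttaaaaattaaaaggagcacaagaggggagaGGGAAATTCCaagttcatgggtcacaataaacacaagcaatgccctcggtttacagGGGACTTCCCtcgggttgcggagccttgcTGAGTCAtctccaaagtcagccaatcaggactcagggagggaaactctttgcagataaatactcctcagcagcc
Cxcl9: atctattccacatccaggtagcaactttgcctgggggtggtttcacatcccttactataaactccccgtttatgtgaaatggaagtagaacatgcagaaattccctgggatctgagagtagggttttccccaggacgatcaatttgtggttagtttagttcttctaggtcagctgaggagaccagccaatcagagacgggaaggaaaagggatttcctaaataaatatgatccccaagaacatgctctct
Cxcl1: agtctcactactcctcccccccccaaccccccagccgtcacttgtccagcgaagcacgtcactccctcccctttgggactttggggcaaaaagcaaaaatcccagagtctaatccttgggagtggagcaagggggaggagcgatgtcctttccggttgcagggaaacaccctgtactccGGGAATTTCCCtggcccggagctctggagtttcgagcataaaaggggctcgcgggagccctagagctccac
Cxcl12: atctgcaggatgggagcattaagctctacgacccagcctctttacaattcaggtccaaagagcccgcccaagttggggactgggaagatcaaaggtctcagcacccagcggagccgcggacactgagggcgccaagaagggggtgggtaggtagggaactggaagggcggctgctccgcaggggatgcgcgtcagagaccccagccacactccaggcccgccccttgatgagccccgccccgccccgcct
These are chr5:92348890-92349139 on the minus strand for Cxcl10 and chr5:92328080-92328329 on the minus strand for Cxcl9. Cxcl1 is at chr5:90890995-90891244 on the plus strand, and Cxcl12 at chr6:117168285-117168534 on the plus strand. The Cxcl10 window held a match to the interferon-stimulated response element (GAAA, any 2 bases and GAAA again) 213 to 204 bases before the start. It also held the NF-kB consensus 159 to 150 and 103 to 94 bases before the start, and the AP-1 site (TGANTCA) 74 to 68 bases before it. The Cxcl1 window held 2 overlapping NF-kB matches on opposite strands, 71 to 62 and 70 to 61 bases before the start. None of these motifs, nor the gamma-activated site (TTCNNNGAA), was found in the windows of Cxcl9, Cxcl12 or Ccl6. Among 32851 promoter windows of the same length, 3.90% held the NF-kB consensus, 2.98% the interferon-stimulated response element, 7.02% the gamma-activated site and 6.75% the AP-1 site. A match is a description of letters and does not show that a factor binds there.

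The hepatocyte marker genes (Alb, Apoa1, Ttr and others) were abundant in every library, and summed to 132000 to 160000 CPM (counts scaled to TMM-adjusted library size) in control, 82100 to 117000 CPM in high-fat and 63100 to 117000 CPM in ketogenic libraries. Every high-fat and ketogenic library was thus below every control. A pair of libraries stood apart. Ketogenic replicate 5 had the highest summed transcripts of monocyte-derived and lipid-associated macrophage markers, at 789 CPM against 119 to 215 CPM in the other 4 ketogenic libraries. Its T and NK cell markers summed to 20.4 CPM against 3.53 to 6.34 CPM in those 4 libraries. Its B and plasma cell markers summed to 31.9 CPM against 5.77 to 12.1 CPM, and its hepatocyte markers were the lowest of all 14 libraries. Control replicate 2 carried 125 CPM of neutrophil markers against 2.91 to 4.68 CPM in the other 3 controls, and 1640 CPM of pancreatic acinar markers against 25.4 to 175 CPM. Acinar markers were also present on the other diets, at 107 to 742 CPM in high-fat and 6.88 to 331 CPM in ketogenic libraries. Values without ketogenic replicate 5 are therefore given beside the results that it moved most.

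Compared per length, the 10 genes spanned a wide range. Cxcl12 was the most abundant, with a mean of 39.2 CPM per kilobase of exon over the 14 libraries (range 31.0 to 47.2). Ccl6 followed at 7.80 CPM per kilobase, then Cxcl16 at 4.45, Cxcl9 at 4.21 and Cxcl1 at 4.16 CPM per kilobase. The ranges of these last 4 genes over the libraries overlapped, from 1.22 up to 25.8 CPM per kilobase. Ccl5 had a mean of 2.41, Cxcl10 of 1.74, Ccl2 of 1.32 and Ccl24 of 1.0 CPM per kilobase. Ccl4 was the lowest at 0.684 CPM per kilobase (range 0.0771 to 2.66). Over all 14 libraries Ccl2 rested on 476 counts and Ccl4 on 143.

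**Figure D1:**
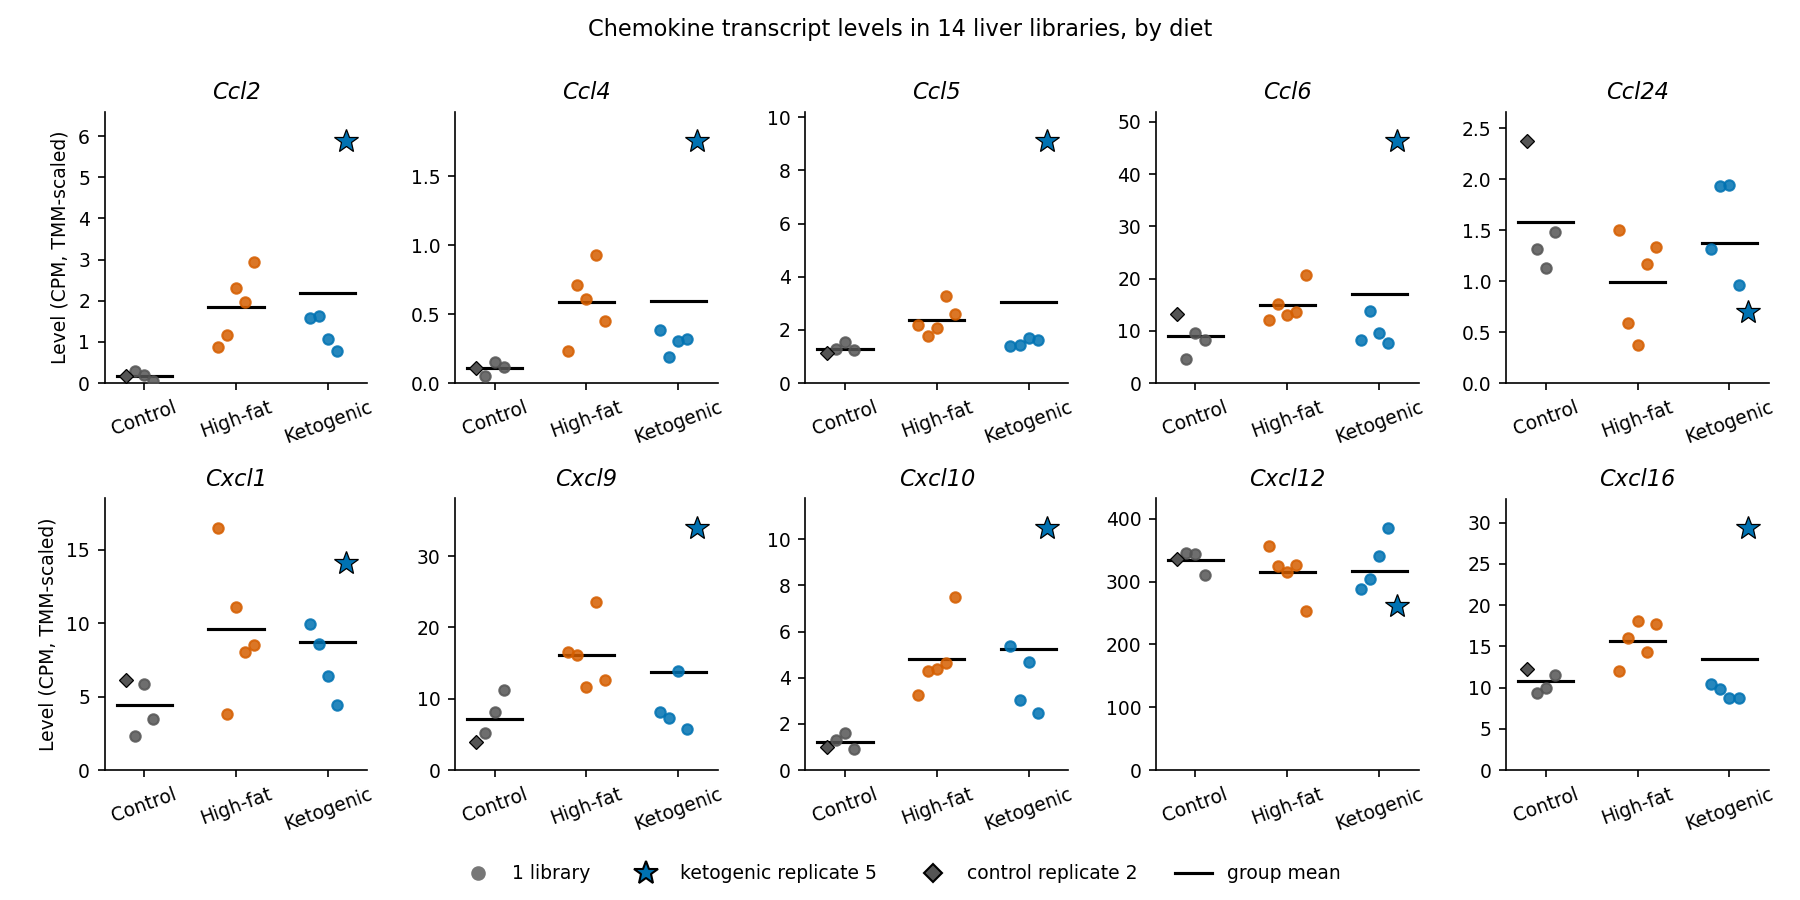
Level of each chemokine gene (vertical axis, TMM-scaled CPM, starting at 0) in the control, high-fat and ketogenic libraries (horizontal axis). Each point is 1 library, bars are group means, the star is ketogenic replicate 5 and the diamond is control replicate 2. All high-fat and ketogenic libraries lie above all controls for Ccl2, Ccl4 and Cxcl10, and the star is the highest point for 7 of the 10 genes.

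Against the control diet, Ccl2, Ccl4 and Cxcl10 rose in high-fat livers, and the same 3 genes rose in ketogenic livers. Ccl2 recruits monocytes, Ccl4 recruits lymphocytes and macrophages, and Cxcl10 is a Cxcr3 ligand. The high-fat comparison thus called 3 of 10 higher, beside 6.95% of the 14627 genes tested. The ketogenic comparison also called 3 of 10 higher, beside 7.47% of all genes. No chemokine gene was called lower in either, where 5.01% and 4.60% of all genes were. All 5 high-fat libraries lay above all 4 controls for 5 of the 10 genes (Ccl2, Ccl4, Ccl5, Cxcl9 and Cxcl10), as was true of 9.45% of all genes. All 5 ketogenic libraries did so for 3 of the 10 (Ccl2, Ccl4 and Cxcl10), beside 7.38% of all genes; without ketogenic replicate 5 it was the same 3 genes, beside 9.91%. The median log2 fold change of the 10 genes was 0.99 for high-fat and 0.97 for ketogenic, beside 0.01 and 0.03 over all genes tested. Without ketogenic replicate 5 the median of the 9 genes still tested was 0.86 for high-fat and 0.22 for ketogenic livers, so the near-equal medians of the diets rest on that library. Both comparisons use the same 4 control libraries, so they are not independent of each other. The 10 genes were chosen with earlier results of these data known. Their counts beside the shares over all genes are therefore a description, not a test of an excess. Ccl4 passed the count filter only through high-fat and ketogenic libraries, as its controls held 1 to 3 counts each. These are bulk livers, in which more cells of a type and more RNA per cell cannot be told apart.

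Ccl2, the monocyte attractant, showed the largest fold change of the 10 genes. Its level was 0.170, 0.305, 0.205 and 0.0571 CPM in the control libraries (replicates 2 to 5). In the high-fat libraries (replicates 1 to 5) it was 0.867, 1.18, 2.30, 1.98 and 2.93 CPM, and in the ketogenic libraries 1.57, 1.64, 1.07, 0.781 and 5.89 CPM. Every high-fat and ketogenic library lay above every control, and ketogenic replicate 5 was the highest of all. The mean was 0.184 ± 0.102 CPM (SD, n = 4) on control, 1.85 ± 0.838 CPM (n = 5) on high-fat and 2.19 ± 2.10 CPM (n = 5) on ketogenic diet. By the quasi-likelihood test of edgeR, adjusted over all genes tested, the log2 fold change was 3.28 ± 0.68 (SE; adjusted p = 0.00639) for high-fat and 3.52 ± 0.68 (adjusted p = 0.0033) for ketogenic livers. Without ketogenic replicate 5 the ketogenic value was 2.7 ± 0.49 (adjusted p = 0.00171). The control libraries held only 1 to 6 Ccl2 counts each.

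Cxcl10, an interferon-inducible Cxcr3 ligand, also rose on both diets. Its level was 1.02, 1.32, 1.59 and 0.914 CPM in control, 3.24, 4.27, 4.37, 4.62 and 7.51 CPM in high-fat, and 5.39, 3.04, 4.70, 2.48 and 10.5 CPM in ketogenic libraries. The lowest treated library, at 2.48 CPM, lay above the highest control. The log2 fold change was 1.98 ± 0.40 (95% interval 1.13 to 2.82, adjusted p = 0.00488, edgeR) for high-fat. For ketogenic livers it was 2.10 ± 0.40 (1.26 to 2.95, adjusted p = 0.00272, edgeR), and 1.66 ± 0.31 (adjusted p = 0.00203) without ketogenic replicate 5. Exons of Cxcl10 share 133 bases with Art3 on the opposite strand. The library kit keeps strand, per the labels' protocols, but the sources used here do not state the strand setting of the counting, so the value of Cxcl10 is uncertain. Art3 itself averaged 1.98, 1.94 and 1.82 CPM in control, high-fat and ketogenic livers.

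Cxcl9, also an interferon-inducible Cxcr3 ligand, did not pass the test in either comparison with all libraries. Its level was 3.96, 5.14, 8.09 and 11.2 CPM in control libraries and 16.5, 16.1, 11.7, 23.6 and 12.6 CPM in high-fat libraries, so these groups did not overlap. The ketogenic libraries were at 8.11, 7.25, 13.9, 5.79 and 34.0 CPM and overlapped the controls. The log2 fold change was 1.18 ± 0.50 (adjusted p = 0.143, edgeR) for high-fat and 0.96 ± 0.49 (adjusted p = 0.222, edgeR) for ketogenic livers. In the fit that leaves out ketogenic replicate 5 the high-fat value passed the test (95% interval 0.47 to 1.86, adjusted p = 0.0236, edgeR), while the ketogenic value was 0.28 ± 0.34.

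Ccl4 and Ccl5, both attractants of T cells and macrophages, differed in how they were called. Ccl4 was at 0.113, 0.0509, 0.154 and 0.114 CPM in control, 0.231, 0.711, 0.611, 0.931 and 0.448 CPM in high-fat, and 0.382, 0.193, 0.306, 0.322 and 1.76 CPM in ketogenic libraries. The treated libraries lay above the controls, whose libraries held 1 to 3 Ccl4 counts each. The log2 fold change was 2.40 ± 0.74 (adjusted p = 0.047, edgeR) for high-fat and 2.43 ± 0.74 (adjusted p = 0.0414, edgeR) for ketogenic livers. Both calls were lost when any 1 of the 4 controls was left out, with adjusted p from 0.0824 to 0.123 for high-fat and from 0.0740 to 0.114 for ketogenic livers. The high-fat call was also lost without high-fat replicate 5 (adjusted p = 0.0663). Without high-fat replicate 2, 3 or 4, or ketogenic replicate 5, Ccl4 fell below the count filter in the fit that leaves it out and was not tested there. With ketogenic replicate 5 and control replicate 2 both left out, a fit added after seeing the data, it passed the filter, and its ketogenic value was 1.46 (adjusted p = 0.143, edgeR); voom with quality weights gave 1.23 (adjusted p = 0.132).

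Ccl5 was at 1.13, 1.27, 1.54 and 1.26 CPM in control and at 2.20, 1.78, 2.07, 3.28 and 2.59 CPM in high-fat libraries, with no overlap. The ketogenic libraries were at 1.4, 1.45, 1.69, 1.61 and 9.12 CPM. The log2 fold change was 0.88 ± 0.53 (adjusted p = 0.300, edgeR) for high-fat and 1.24 ± 0.52 (adjusted p = 0.136, edgeR) for ketogenic livers. With ketogenic replicate 5 left out, the high-fat value was 0.86 ± 0.22 and passed the test (adjusted p = 0.0145, edgeR), and the ketogenic value was 0.22 ± 0.24 (adjusted p = 0.605). The 4 other ketogenic libraries thus sat close to the controls for Ccl5.

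Cxcl16, the membrane-anchored ligand of Cxcr6, did not pass the test with all libraries. Its level was 12.3, 9.37, 10.0 and 11.5 CPM in control, 12, 16, 18.1, 14.3 and 17.7 CPM in high-fat, and 10.4, 9.81, 8.78, 8.77 and 29.4 CPM in ketogenic libraries. The log2 fold change was 0.53 ± 0.32 (adjusted p = 0.293, edgeR) for high-fat and 0.32 ± 0.31 (adjusted p = 0.534, edgeR) for ketogenic livers. When ketogenic replicate 5 was left out, the high-fat value was 0.52 ± 0.13 and passed the test (adjusted p = 0.014, edgeR), and the ketogenic value was -0.21 ± 0.14 (adjusted p = 0.37). Exons of Cxcl16 share 552 bases with Zmynd15 on the opposite strand, so its values carry the same strand limit as those of Cxcl10. Zmynd15 averaged 3.77 CPM in control, 4.58 CPM in high-fat and 5.60 CPM in ketogenic livers, with a highest ketogenic library of 11.7 CPM; its part in the Cxcl16 values was not tested.

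The remaining 4 genes did not pass the test in either comparison. Cxcl1, the neutrophil attractant, ranged from 2.29 to 6.11 CPM in control, 3.85 to 16.5 CPM in high-fat and 4.41 to 14.1 CPM in ketogenic libraries. Its log2 fold change was 1.11 ± 0.41 (adjusted p = 0.0927, edgeR) for high-fat and 0.97 ± 0.41 (adjusted p = 0.138, edgeR) for ketogenic livers. It passed the test for high-fat without high-fat replicate 2 (adjusted p = 0.0434). Ccl6, the rodent macrophage chemokine, ranged from 4.63 to 13.3 CPM in control, 12.1 to 20.6 CPM in high-fat and 7.58 to 46.4 CPM in ketogenic libraries, with log2 fold changes of 0.73 ± 0.51 and 0.94 ± 0.51; the ketogenic value was 0.11 ± 0.27 (adjusted p = 0.842, edgeR) without ketogenic replicate 5. Ccl24, the eosinophil attractant, had log2 fold changes of -0.66 ± 0.41 for high-fat and -0.21 ± 0.40 for ketogenic livers, with values from 0.376 to 2.38 CPM. Cxcl12 averaged 334 ± 16.4 CPM (n = 4) on control, 315 ± 37.5 CPM (n = 5) on high-fat and 316 ± 48.5 CPM (n = 5) on ketogenic diet. Its log2 fold change had a 95% interval of -0.36 to 0.19 for high-fat and -0.35 to 0.19 for ketogenic livers.

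**Figure D2:**
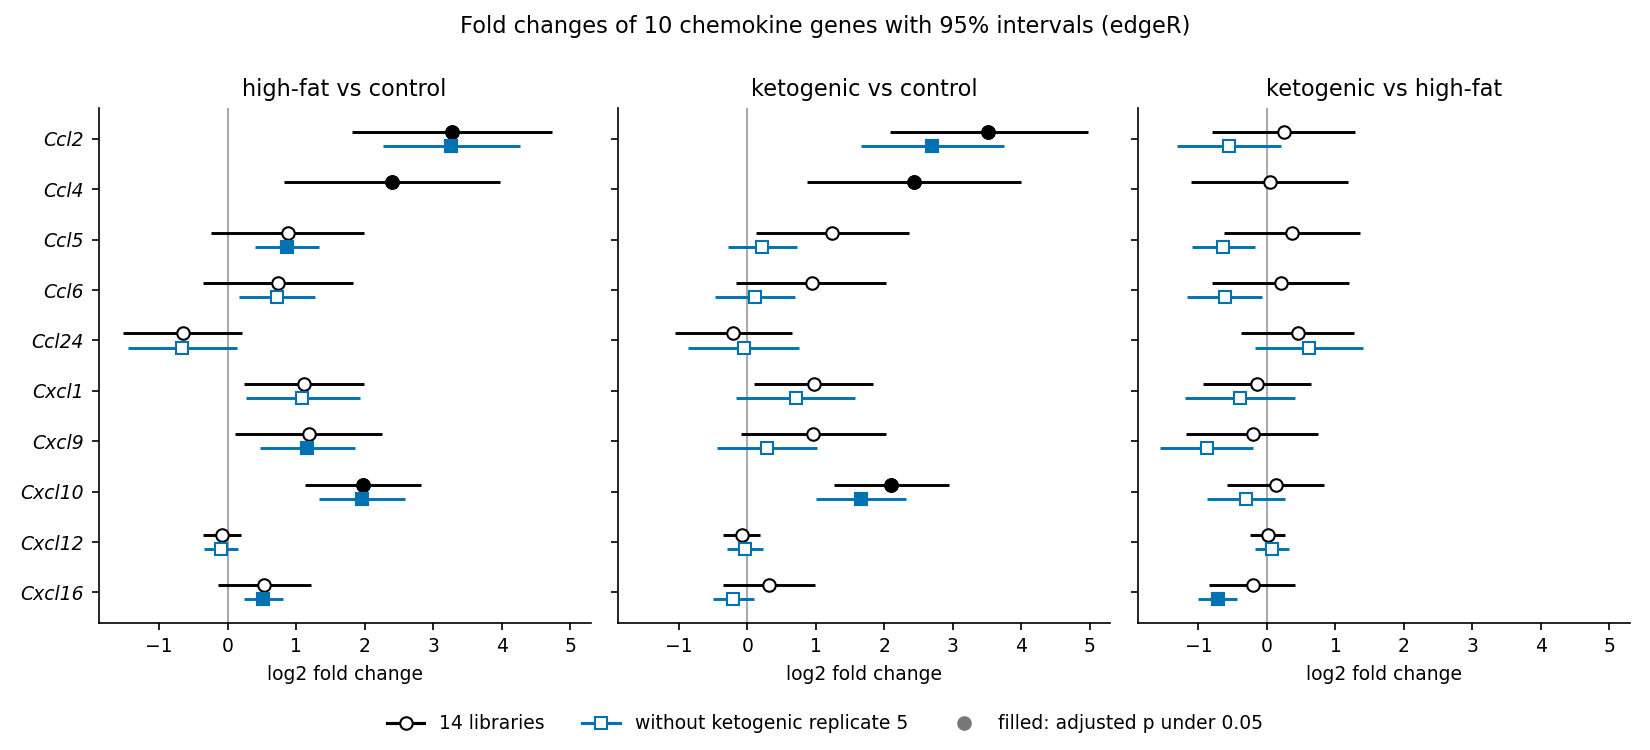
Log2 fold change (horizontal axis) of each chemokine gene (vertical axis) with its 95% interval by edgeR, in 3 panels for the 3 comparisons. Black circles use all 14 libraries, blue squares leave out ketogenic replicate 5, and filled symbols have an adjusted p under 0.05. Ccl2 and Cxcl10 are filled in both fits of both comparisons with control, and Ccl4 has no blue square because it was not tested in that fit.

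Leaving out ketogenic replicate 5 changed which genes were called, also in high-fat livers. All libraries share 1 filter, scaling and estimate of the spread, and each was redone in that fit. Ccl4 fell below the count filter there, and which step moved the other calls was not tested. In high-fat against control livers, 5 of the 9 genes tested were then higher (Ccl2, Ccl5, Cxcl9, Cxcl10 and Cxcl16), beside 10.2% of all 14400 genes tested. In ketogenic against control livers, 2 of 9 were higher (Ccl2 and Cxcl10), beside 7.24% of all genes. In that library 7 of the 10 genes had their highest value of all 14: Ccl2, Ccl4, Ccl5, Ccl6, Cxcl9, Cxcl10 and Cxcl16. These values were 2.69 to 5.94 times the mean of the other 4 ketogenic libraries. Cxcl1 was 1.92 times that mean, while Cxcl12 was 0.792 and Ccl24 0.452 times it. The macrophage and lymphocyte markers given above were also highest there, and their part in the result was not tested.

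**Figure D3:**
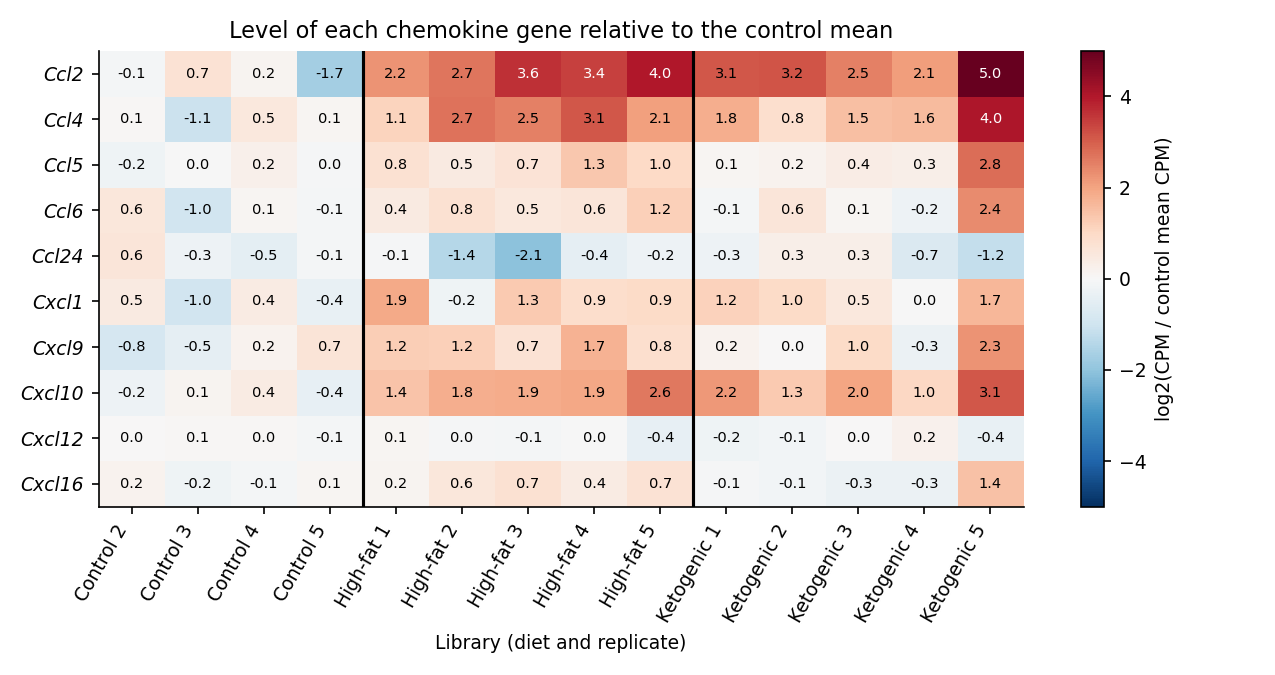
Log2 ratio of each library's CPM to the mean CPM of the 4 controls, for each chemokine gene (rows) in each library (columns, named by diet and replicate), with red above and blue below the control mean. Ccl2, Ccl4 and Cxcl10 are red in every high-fat and ketogenic library, while on the ketogenic diet Ccl5 and Cxcl16 stand out in replicate 5.

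Ketogenic and high-fat livers were also compared directly. None of the 10 genes passed the test, by edgeR with all libraries, beside 0.0615% of all genes tested in either direction (9 genes), and none had an unadjusted p under 0.05, as 8.70% of all genes did. The log2 fold changes of ketogenic against high-fat ran from -0.21 to 0.45, and the groups overlapped for all 10 genes, while 1.76% of all genes did not overlap. The intervals were wide, at -0.80 to 1.29 for Ccl2 and -0.58 to 0.84 for Cxcl10; a difference of either sign lies within both. With ketogenic replicate 5 left out, Cxcl16 was lower in ketogenic livers by a log2 fold change of -0.72 ± 0.13 (adjusted p = 0.0102, edgeR), beside 1.25% of all genes called lower. In that fit 3 of 10 resident Kupffer cell markers were also lower and none higher. These were Adgre1 (-1.26 ± 0.23), Cd5l (-0.81 ± 0.14) and Slc40a1 (-0.56 ± 0.13), and their part in the Cxcl16 value was not tested. The other 4 ketogenic libraries lay below all 5 high-fat libraries for Cxcl16 and Ccl5, as was true of 3.17% of all genes. For Ccl5 the value was -0.64 ± 0.22 (adjusted p = 0.132) and for Cxcl9 -0.88 ± 0.32 (adjusted p = 0.163), neither past the threshold.

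The receptors on which these ligands act were mostly measured at low levels. Of 18 chemokine receptors listed, 8 passed the filter. None was called for high-fat and 1 rose for ketogenic livers, beside 6.95% and 7.47% of all genes called higher. It was Cx3cr1, the receptor of Cx3cl1 on monocytes (log2 fold change 1.95 ± 0.56, adjusted p = 0.0331, edgeR), and this call was lost without ketogenic replicate 5. In that fit 3 of the 7 receptors tested were higher for high-fat livers, beside 10.2% of all genes, and none for ketogenic livers. Ccr2, the receptor of Ccl2, averaged 2.15 ± 0.284 CPM on control, 4.54 ± 1.32 CPM on high-fat and 5.92 ± 6.37 CPM on ketogenic diet, with adjusted p of 0.229 and 0.103 (edgeR). The high-fat libraries lay above all controls for Ccr2, and also for Ccr7 and Cx3cr1, as was true of 9.45% of all genes. Cxcr3 had log2 fold changes of -0.64 and -0.03, and Cxcr6 of -0.53 and 0.11 for high-fat and ketogenic livers, neither past the threshold. The receptors Cxcr2 and Ccr3 did not pass the filter, with 77 and 41 counts over all 14 libraries. The summed receptor level was 68.2 CPM in ketogenic replicate 5 and 10.5 to 23 CPM in the other 4 ketogenic libraries.

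Among 29 other chemokine ligands listed, 13 were tested. Pf4 (Cxcl4), a platelet and megakaryocyte chemokine, rose in high-fat livers by a log2 fold change of 1.41 ± 0.40 (adjusted p = 0.0333, edgeR). It was the only 1 of the 13 called, beside 6.95% of all genes called higher. None was called for ketogenic livers, beside 7.47% of all genes called higher. Without ketogenic replicate 5, 2 of 12 were higher for high-fat, beside 10.2% of all genes, and none for ketogenic livers, beside 7.24%. Cxcl11, another Cxcr3 ligand, averaged 4.12 ± 1.46 CPM on control, 3.28 ± 0.723 CPM on high-fat and 4.84 ± 0.648 CPM on ketogenic diet, and was not called. The median log2 fold change of these ligands was 0.30 for high-fat and 0.23 for ketogenic livers. Of 11 atypical receptors and chemokine-processing proteases, 1 rose for high-fat and 3 for ketogenic livers, beside 6.95% and 7.47% of all genes. Mmp12, a macrophage elastase that cleaves chemokines, rose in both, by 4.28 ± 0.89 (adjusted p = 0.0087) and 4.94 ± 0.90 (adjusted p = 0.00354). Mmp2, another matrix metalloprotease that cleaves chemokines, and Ackr2, a scavenger of CC chemokines, rose in ketogenic livers only by the test, with log2 fold changes of 1.23 ± 0.36 (adjusted p = 0.0346) and 0.78 ± 0.24 (adjusted p = 0.0444); for high-fat the values were 0.59 and 0.73, and the difference between diets did not pass the test (adjusted p = 0.609 and 0.981). The Mmp2 and Ackr2 calls were lost without ketogenic replicate 5, and Mmp12 was then at 4.02 ± 0.65 for ketogenic livers.

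Of 20 genes of the NF-kB pathway and its targets tested, 3 rose and 1 fell for high-fat, beside 6.95% and 5.01% of all genes. For ketogenic livers 2 rose and 1 fell, beside 7.47% and 4.60%, and the medians were 0.27 and 0.33. Without ketogenic replicate 5, 5 of 19 rose and 1 fell for high-fat, and 1 rose and 1 fell for ketogenic livers. In that fit 10.2% and 7.24% of all genes were called higher, and 1145 and 723 of 14400 genes lower. Il1rn, which encodes the interleukin-1 receptor antagonist, rose by 3.55 ± 0.59 (adjusted p = 0.00176) and 3.31 ± 0.59 (adjusted p = 0.00212), and Lcn2, an iron-scavenging acute phase protein, by 2.52 ± 0.65 and 2.37 ± 0.64 (adjusted p = 0.0252 and 0.0314); the ketogenic call of Lcn2 was lost without ketogenic replicate 5. Nfkb2 rose for high-fat (1.07 ± 0.30, adjusted p = 0.0322). Birc3, an inhibitor of apoptosis and NF-kB target, fell by 0.64 and 0.85 on the log2 scale (adjusted p = 0.0499 and 0.0113). Of 21 interferon gamma pathway genes tested, 1 rose for high-fat and 2 for ketogenic livers, beside 6.95% and 7.47% of all genes; without ketogenic replicate 5, 5 of 20 rose for high-fat, beside 10.2%, and 2 for ketogenic livers. Ifngr2, a subunit of the interferon gamma receptor, rose by 0.68 ± 0.13 (adjusted p = 0.00448) and 0.85 ± 0.13 (adjusted p = 0.000681), and Gbp3, a guanylate-binding protein, rose for ketogenic livers (0.92 ± 0.23, adjusted p = 0.0149). Of 8 type 2 and alternative macrophage genes tested, 2 rose for high-fat and 1 for ketogenic livers, beside 6.95% and 7.47% of all genes. These were Pparg in both (1.95 ± 0.28 and 1.86 ± 0.28) and Il4ra for high-fat (0.34 ± 0.10, adjusted p = 0.034, edgeR). Only 5 of the 8 had a positive log2 fold change for high-fat and 2 for ketogenic livers, with medians of 0.14 and -0.21. Without ketogenic replicate 5 the same numbers rose, beside 10.2% and 7.24% of all genes, with medians of 0.13 and -0.39.

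Cell-type marker transcripts are given beside these results because some of them differed between diets and several stood apart in ketogenic replicate 5. Of 11 monocyte-derived and lipid-associated macrophage markers tested, 1 rose for high-fat and 2 for ketogenic livers, beside 6.95% and 7.47% of all genes, with a median of 0.84 and 0.79. Without ketogenic replicate 5, 7 of the 11 rose for high-fat, beside 10.2% of all genes, and 2 for ketogenic livers, where the median was 0.26. Their sum was 106 to 183 CPM in control, 223 to 355 CPM in high-fat and 119 to 789 CPM in ketogenic libraries. Gpnmb, a lipid-associated macrophage gene, rose by 3.86 ± 0.89 (adjusted p = 0.0163) and 4.95 ± 0.92 (adjusted p = 0.00438), and Trem2 rose for ketogenic livers (2.66 ± 0.71, adjusted p = 0.0262). With ketogenic replicate 5 left out, the ketogenic values were 3.84 ± 0.59 for Gpnmb and 1.59 ± 0.43 for Trem2, both still called. Among 10 resident Kupffer cell markers, 1 fell for high-fat and 2 for ketogenic livers, beside 5.01% and 4.60% of all genes. Their sum was 815 to 949, 712 to 892 and 513 to 970 CPM by diet. The T and NK cell markers summed to 6.26 to 8.26 CPM in control, 4.5 to 7.85 CPM in high-fat and 3.53 to 20.4 CPM in ketogenic libraries, and none of the 7 tested was called. With ketogenic replicate 5 left out, 2 Kupffer cell markers rose and 2 fell for high-fat livers, and 1 of 5 T and NK cell markers fell. In that fit 10.2% of all genes were called higher for high-fat livers, and 1145 of 14400 genes lower. Stellate cell and fibroblast markers summed to 317 to 352 CPM in control, 427 to 578 CPM in high-fat and 361 to 750 CPM in ketogenic libraries, without overlap with the controls. Of the 9 tested, 3 rose on each diet, beside 6.95% and 7.47% of all genes. Without ketogenic replicate 5 it was 5 for high-fat and 1 for ketogenic livers, beside 10.2% and 7.24% of all genes. Of 7 hepatocyte markers, whose sums are given above, 1 fell for high-fat (Cps1) and 2 for ketogenic livers (Cps1 and Fgb), beside 5.01% and 4.60% of all genes. The neutrophil marker Ly6g was at 0 in 9 libraries and the eosinophil marker Epx in 11, while S100a9 (1284 counts) and Ear2 (1714 counts) were at 0 in none. Of 8 neutrophil markers 5 were tested and none was called. Ear2, the only 1 of 7 eosinophil markers tested, rose for ketogenic livers (log2 fold change 1.63). Without ketogenic replicate 5, Ear2 was called for high-fat livers (1.56) and not for ketogenic livers (0.9). Whether these marker levels have a part in the chemokine results was not tested.

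**Figure D4:**
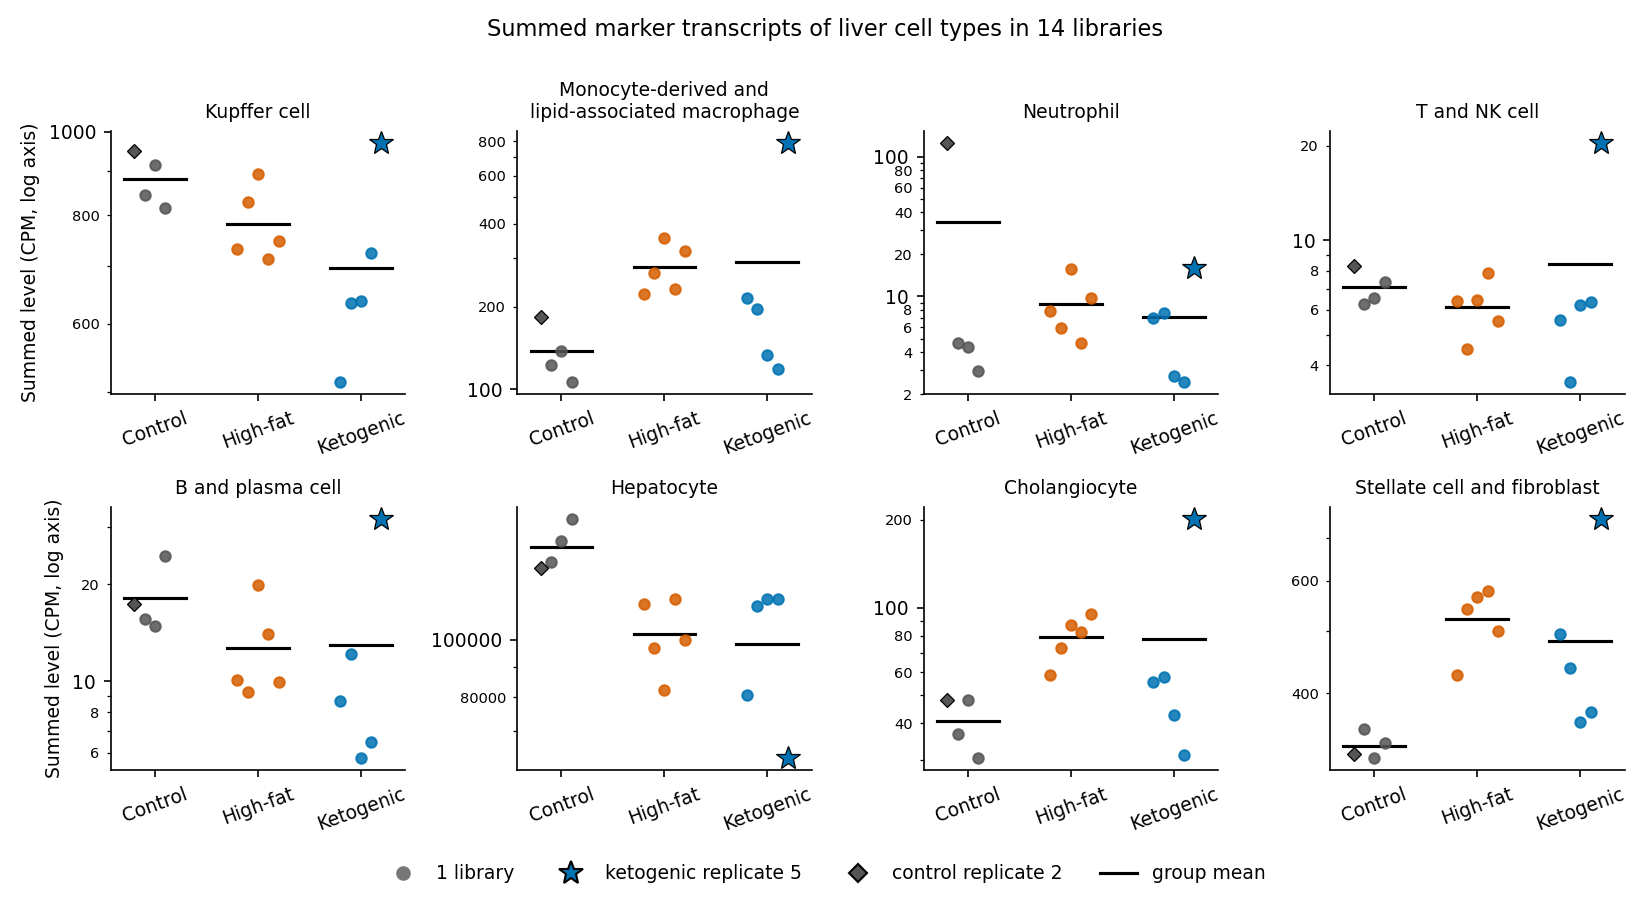
Summed level of the marker genes of 8 liver cell types (vertical axis, CPM, log axis) in each library by diet (horizontal axis); points, bars, star and diamond as in the plot of chemokine levels. The star (ketogenic replicate 5) is highest for Kupffer cell, monocyte-derived and lipid-associated macrophage, T and NK, B and plasma, cholangiocyte and stellate markers and lowest for hepatocyte markers, and the diamond (control replicate 2) is highest for neutrophil markers. Spp1, which is in both the macrophage and the cholangiocyte list, made up 182 of the 202 CPM of the star's cholangiocyte sum. The highest ketogenic levels of Krt19, Epcam and Sox9 (4.88, 5.38 and 9.52 CPM) lay below the highest controls (8.26, 6.96 and 10.1 CPM). Those of Krt7 and Cftr (2.05 and 0.549 CPM) lay above them (1.43 and 0.396 CPM).

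The genes most like each chemokine gene over the 14 libraries were taken from 12825 genes by Pearson r of log2 CPM, as a description over libraries that share diet and depth. Cxcl10 and Il1rn were the 2 genes most like Ccl2 (both r = 0.960, and 0.846 and 0.874 with each diet's mean subtracted). Cxcl10 was most like Psap, a lysosomal protein gene (r = 0.966). Cxcl16 was most like the macrophage complement gene C1qc (r = 0.979, and 0.973 within diets), followed by Cotl1 and Cd5l. Ccl6 was most like the Fc receptor gene Fcgr3 (r = 0.962). Cxcl9 was most like Gbp2, an interferon-inducible guanylate-binding protein gene (r = 0.948), and Ccl5 most like H2-DMa, which acts in class II antigen presentation (r = 0.931). Without ketogenic replicate 5 the r of Ccl5 with H2-DMa was 0.812 and that of Cxcl16 with C1qc was 0.962. Between members, Ccl24 had r from -0.62 to 0.14 and Cxcl12 from -0.68 to 0.14 with the other genes.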

How the data were processed

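Liver RNA of 15 libraries was sequenced; the labels' protocols name poly(A) selection and a kit that keeps strand. The authors deposited raw whole-number counts per Ensembl gene. Per the submitters' processing notes, tools were featureCounts 1.6, STAR 2.7.9a, cutadapt 1.16 and DESeq2 1.36.0, on build GRCm39; the strand setting of the counting is not stated there. Symbols and exon lengths came from an annotation of an earlier build and matched 91.39% of IDs. Genes were kept with filterByExpr of edgeR 4.0.16 (minimum count 10, total 15), scaled with TMM (factors 0.886 to 1.215) and tested in 1 fit over 14 libraries with the two-sided quasi-likelihood test in R 4.3.3, with p-values adjusted by Benjamini-Hochberg over 14627 genes and a threshold of 0.05. The SE is the absolute log2 fold change divided by the square root of F. CPM values are TMM-scaled. Alternatives were library totals, DESeq2 1.42.0, voom with quality weights (limma 3.58.1), other filters, a replicate block and leaving out each library. The number a replicate carries was not used to pair samples in the main fit.

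The members and gene lists were chosen with earlier results of these data known. The rule named all 10 chemokine genes and up to 4 members of each other list past the threshold with the smallest adjusted p; the text prints part of these. Receptors of the members are given whatever their result, and some list members are not reported here by name. Likeness used log2 CPM with a prior count of 2.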

Additional observations from a re-analysis of the deposited data

Results flagged for a closer look

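Of 30 groups (10 genes in 3 diets), 6 had a library far from the others of its diet by Dixon's test, and chance flags about 1 in 20 groups. All 6 were ketogenic replicate 5. Its level was 5.89 CPM for Ccl2, 1.76 CPM for Ccl4, 9.12 CPM for Ccl5, 46.4 CPM for Ccl6, 34 CPM for Cxcl9 and 29.4 CPM for Cxcl16.

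The control library that the submitters excluded as contaminated, replicate 1, was not used in a comparison. Its levels of 3 genes lay above all 4 controls used, at 0.558 CPM for Ccl2, 2.09 CPM for Cxcl10 and 392 CPM for Cxcl12. Pancreatic acinar markers summed to 15800 CPM in it.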

How the results depend on the processing

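Ccl2 and Cxcl10 were called higher in both comparisons with control under all 19 alternatives to the fit over 14 libraries that were run for them. For high-fat against control livers, 3 chemokine genes were called; the count was 5 with DESeq2, 6 with voom and quality weights, 5 with only the 2 diets compared, and 2 to 5 when leaving out 1 library, the 5 without ketogenic replicate 5, an alternative chosen after seeing the data. For ketogenic against control livers the count stayed at 2 or 3, and for ketogenic against high-fat livers it was 0 to 1 when leaving out 1 library. Over all genes, 1749 were called for high-fat and 1766 for ketogenic against control. These counts were 2441 and 2422 with DESeq2, 4186 and 3416 with voom, and 2518 and 1268 with only the 2 diets compared. Leaving out 1 library gave 934 to 2617 and 1056 to 2201. Library totals gave 1302 higher and 420 lower for high-fat, and 1826 and 368 for ketogenic livers. Ketogenic against high-fat livers had 9 genes called, 15 with library totals, 173 with DESeq2, 26 with no filter, 413 with voom, 15 with a replicate block, 1 with only the 2 diets and 1 to 315 when leaving out 1 library. With the replicate block, 3, 2 and 0 chemokine genes were called, since Ccl4 was lost for ketogenic livers (adjusted p = 0.0645, edgeR). Deviations of same-numbered libraries from their diet means correlated at a median of 0, over 13 pairs, with 3 over 0.1. For differently numbered libraries the median was 0.013, over 52 pairs, with 13 over 0.1. Same-numbered libraries were thus no more alike, which cannot exclude a pairing. Ccl4 was also lost with library totals for high-fat (adjusted p = 0.0522) and with voom for ketogenic livers (adjusted p = 0.132). Ccl4 fell below the filter, and so gave no value, with a minimum count of 30, with only the 2 diets compared, and in the fits without high-fat replicate 2, 3 or 4 or ketogenic replicate 5. Signs reversed only for uncalled genes, and the cause was not tested. With library totals, Cxcl12 was 0.04 for high-fat and 0.08 for ketogenic livers. For ketogenic against control, Ccl24 was 0.09 with voom, 0.05 without control replicate 2 and 0.23 without that library and ketogenic replicate 5 (added after seeing the data), and Cxcl16 was -0.05, -0.21 without ketogenic replicate 5 and -0.12 without both; leaving out 1 library otherwise reached -0.37 for Ccl24 and 0.44 for Cxcl16. For ketogenic against high-fat, voom gave -0.39 for Ccl2, -1.11 for Ccl4, -0.60 for Ccl5, -0.34 for Ccl6 and -0.40 for Cxcl10. The replicate block gave -0.23 for Ccl4 and -0.09 for Ccl6, and the library number set -0.03 for Ccl4. Without ketogenic replicate 5 the values were -0.56 for Ccl2, -0.64 for Ccl5, -0.61 for Ccl6 and -0.30 for Cxcl10. The highest values on leaving out 1 library kept the sign of the main fit. They were 0.47 for Ccl2, 0.25 for Ccl4, 0.54 for Ccl5, 0.38 for Ccl6, 0.34 for Cxcl10 and 0.07 for Cxcl12. Leaving out high-fat replicate 1 gave -0.15 for Ccl4 and 0.14 for Cxcl1, and high-fat replicate 5 -0.05 for Ccl4 and -0.06 for Cxcl12. Leaving out ketogenic replicate 4 gave 0.02 for Cxcl1 and -0.08 for Cxcl12, and replicate 3 -0.02 for Cxcl12. Depth limits Ccl4 and Ccl2, whose control libraries held 1 to 6 counts.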
